A study of Homo sapiens with 54 samples.

Results

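POLR3GL occupancy was compared between T47D cells given ethanol vehicle and T47D cells given R5020, with the regions that chromatin immunoprecipitation and sequencing (ChIP-seq) called for this subunit of RNA polymerase III. Every row of the deposited vehicle list (1104 regions) and of the R5020 list (603 regions) on chromosomes 1 to 22 and X was used, 1707 regions of 518471 in the 16 lists of the series. Regions of both treatments were taken as the same place where they shared at least 1 bp, and chromosome 8, which held most of both lists, was kept apart from the other chromosomes. T47D is a human breast cancer line with estrogen and progesterone receptors (PR), and R5020 is a synthetic progestin. Cells of both groups were exposed for 1 h, and the dose is not given in the sources used here. Each group has 3 libraries and 1 list made from them, so there is no spread between replicates and no test of any difference between treatments. The group of each library follows its title; 1 of the 6 POLR3GL libraries, titled R5020 replicate 1, has a treatment tag that says ethanol, and because the lists pool the libraries no value could be given without it.

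RNA polymerase III transcribes transfer RNA genes, the 5S ribosomal RNA genes and a set of other short RNA genes. In vertebrates one of its small subunits comes in alternative forms encoded by the paralogs POLR3G and POLR3GL, so that an enzyme holds one or the other, while POLR3A, the largest subunit, and POLR3C belong to both forms. POLR3G is typical of stem and many cancer cells, whereas POLR3GL is the form of most differentiated tissues. Brf1 is part of the initiation factor that brings the enzyme to tRNA genes, and Maf1 is its repressor. Acetylated lysine 27 of histone H3 (H3K27Ac) marks active promoters and enhancers.

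Few of the gene starts in the promoter table lay under POLR3GL regions. The bases before 4 of these starts are shown because they lie at the regions discussed below. The table gives no gene strand on the chromosome that held most of both lists, so regions there could not be counted (processing section). Of 34961 promoter windows in the RefSeq table (GRCh38.p14, from 250 bases before to 50 bases after a gene's start), 20 lay under a vehicle region and 11 under an R5020 region, and 0 lay under both. The 250 bases before the start are printed 5′ to 3′ on the strand of the gene, with the bases inside the POLR3GL region in capitals. POLG encodes the catalytic subunit of the mitochondrial DNA polymerase and LTA4H an enzyme of leukotriene synthesis. At each, an R5020 region covers the upstream end of the window and extends beyond it over a tRNA gene. The tRNA genes lie at chr15:89335073-89335145 and chr12:96036021-96036092. The capitals at LTA4H therefore hold none of the tRNA gene, and those at POLG only its edge. CCDC174 has the promoter window with the highest −log10 q of the R5020 list (8.16) and TNS2, which encodes a focal adhesion protein, that of the vehicle list (4.96).
POLG, chr15:89334825-89335074, minus strand, R5020 region: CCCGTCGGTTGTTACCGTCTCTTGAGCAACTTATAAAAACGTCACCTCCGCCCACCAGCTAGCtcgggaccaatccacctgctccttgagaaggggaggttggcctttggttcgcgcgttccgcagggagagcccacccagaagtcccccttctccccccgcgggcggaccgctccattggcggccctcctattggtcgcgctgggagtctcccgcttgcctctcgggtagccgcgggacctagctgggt
LTA4H, chr12:96035588-96035837, minus strand, R5020 region: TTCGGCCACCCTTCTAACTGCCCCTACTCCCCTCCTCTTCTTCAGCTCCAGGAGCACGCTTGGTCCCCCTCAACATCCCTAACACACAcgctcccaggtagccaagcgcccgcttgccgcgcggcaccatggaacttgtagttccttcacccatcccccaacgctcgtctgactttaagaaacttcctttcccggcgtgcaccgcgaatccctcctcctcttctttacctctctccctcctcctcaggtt
CCDC174, chr3:14651512-14651761, plus strand, R5020 region: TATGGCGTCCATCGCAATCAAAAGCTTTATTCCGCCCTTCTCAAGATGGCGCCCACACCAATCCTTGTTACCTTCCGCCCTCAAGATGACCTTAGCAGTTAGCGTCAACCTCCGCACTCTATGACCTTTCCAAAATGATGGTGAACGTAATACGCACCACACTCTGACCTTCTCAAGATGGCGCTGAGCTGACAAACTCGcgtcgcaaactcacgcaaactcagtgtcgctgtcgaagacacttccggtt
TNS2, chr12:53046741-53046990, plus strand, vehicle region: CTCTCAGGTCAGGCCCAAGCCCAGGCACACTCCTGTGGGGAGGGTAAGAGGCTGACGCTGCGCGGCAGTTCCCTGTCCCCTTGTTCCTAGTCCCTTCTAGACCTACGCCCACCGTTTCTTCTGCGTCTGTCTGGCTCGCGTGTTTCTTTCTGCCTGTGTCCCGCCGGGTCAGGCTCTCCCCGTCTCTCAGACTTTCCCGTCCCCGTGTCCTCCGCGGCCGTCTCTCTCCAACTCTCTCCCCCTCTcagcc
The region covered 63 of the 250 bases at POLG, 88 at LTA4H, 200 at CCDC174 and 245 at TNS2. The GC box GGGCGG, searched on both strands, occurred 2 times in the POLG window and 2 times at CCDC174, and the CCAAT box occurred 3 times at POLG and 1 time at CCDC174. The windows counted are not all separate places. MMP24OS and MMP24-AS1-EDEM2 have the same window, DEDD, PHACTR1 and TNS2 have more than 1 window each, and AIDA and BROX share a region, as do FAM228B and SF3B6. Over all windows 42.7% held the GC box, against 13 of the 20 windows under vehicle regions and 7 of the 11 under R5020 regions. CCAAT was in 32.0% of all windows, in 9 of the 20 and in 4 of the 11. The hormone-element core ACANNNTGT was in 4.60% of all windows, in 2 of the 20 and in 0 of the 11. H3K27Ac of the same treatment overlapped 17 of the 20 vehicle windows and 8 of the 11 R5020 windows, against 49.5% and 49.8% of all windows. POLR3G overlapped 16 and 8, against 30.4% and 24.5% of all windows. PR overlapped 6 and 9, against 7.31% and 35.1% of all windows, with 6662 PR regions in the vehicle and 173115 in the R5020 list.

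The R5020 list was shorter than the vehicle list on chromosome 8 and elsewhere. Over all chromosomes most regions of each list did not overlap the other list, although on chromosome 8 most R5020 regions did (58.1%). On chromosome 8 there were 680 vehicle and 344 R5020 regions, a log2 ratio of R5020 over vehicle of -0.98 (95% counting interval -1.17 to -0.80). On the other chromosomes there were 424 and 259 regions, a log2 ratio of -0.71 (-0.93 to -0.49). The intervals cover counting error of regions only, and neighbouring regions are not independent. Among regions with a fold of at least 3 the numbers were 184 vehicle and 152 R5020 regions on chromosome 8 (log2 ratio -0.28), and 179 and 149 elsewhere (-0.26). When regions of 1 list at most 50 kb apart were joined into 1 locus, an alternative chosen after the data were seen, 40 vehicle and 34 R5020 loci remained on chromosome 8 (-0.23), and 208 and 144 elsewhere (-0.53).

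Over all chromosomes 24.1% of the vehicle regions overlapped an R5020 region, and 42.8% of the R5020 regions overlapped a vehicle region. The shared part was larger on chromosome 8: 206 of 680 vehicle regions (30.3%, 95% Wilson interval 27.0 to 33.9) against 60 of 424 elsewhere (14.2%, 11.2 to 17.8), a difference of 16.1 percentage points (Newcombe interval 11.2 to 20.8). In the other direction 200 of 344 R5020 regions on chromosome 8 were shared (58.1%, 52.9 to 63.2) and 58 of 259 elsewhere (22.4%, 17.7 to 27.9), a difference of 35.8 points (28.2 to 42.7). This order rested on a stretch around TRPS1: without it, a setting chosen after the data were seen, 3.03% of the vehicle and 5.41% of the R5020 regions of chromosome 8 were shared. With regions within 50 kb joined into loci, the order turned for vehicle (15.0% of loci shared on chromosome 8 and 17.3% elsewhere) but not for R5020 (32.4% and 25.7%). The paralog POLR3G, measured in libraries of its own, shared 50.8% of its vehicle regions with R5020 on chromosome 8 and 38.9% elsewhere. For POLR3C these shares were 52.1% and 64.9%. Of the vehicle-only regions, 71.7% on chromosome 8 and 31.6% of those elsewhere lay within 10 kb of an R5020 region. Of all vehicle regions on chromosome 8, 51.8% had an R5020 region within 1 kb. R5020 regions are crowded there, with 258 over 673803 bp in the run at TRPS1 described below. No share of the bases within these distances is set beside the values, so they are descriptions only.

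**Figure D1:**
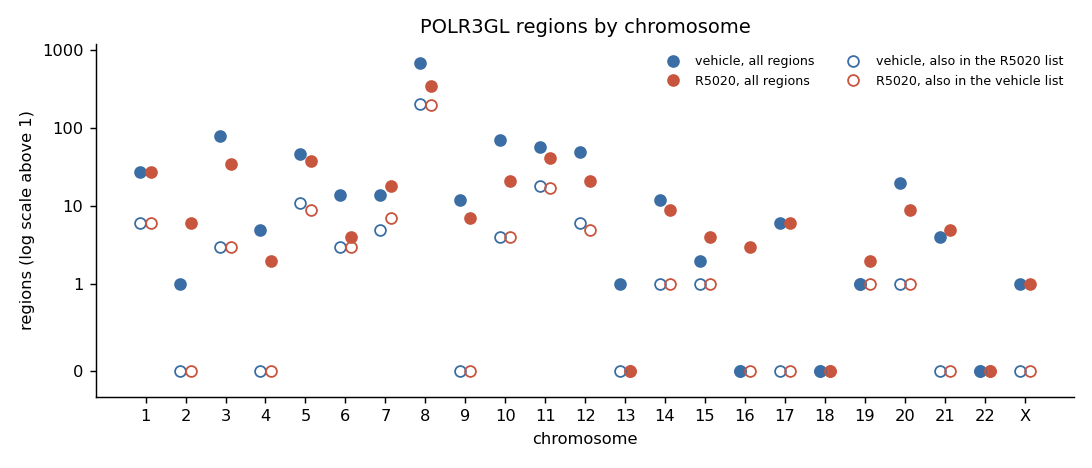
POLR3GL regions on each chromosome (x axis) by list, on an axis that is logarithmic above 1 (y axis). Filled points are all regions of the vehicle (blue) or R5020 (red) list and open points those that overlap a region of the other list; chromosome 8, with 680 and 344 regions, stands above every other chromosome in both lists.

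Of the 23 chromosomes, 12 had more vehicle regions, 6 had more R5020 regions, 3 had equal numbers and chromosomes 18 and 22 had none. Chromosome 3 had 80 vehicle and 35 R5020 regions, chromosome 10 had 71 and 21, and chromosome 12 had 49 and 21. Chromosome 1 had 27 in both lists, and chromosome 7 went the other way with 14 and 18. Chromosome 8 held 61.6% of the vehicle list and 57.0% of the R5020 list.

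The regions were shallow in both lists. The fold and p-value of each region fix the number of fragments stacked at its summit and the local background against which the peak caller weighed it, and a whole number of fragments was found for all 1104 and all 603 regions (processing section). The median vehicle region had 35 fragments over a local background of 11.9, and the median R5020 region 33 over 10.4. The lowest background of a list, which a caller takes from the whole library, was 7.22 fragments with vehicle and 6.54 with R5020. It grows with the number and with the length of the fragments. The narrowest regions, which MACS2 by its usual settings makes as wide as its fragment length, were 193 and 172 bases, and per base of that width the lowest backgrounds were 0.0374 and 0.0380 fragments. The highest folds of the lists were 4.73 and 4.84.

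**Figure D2:**
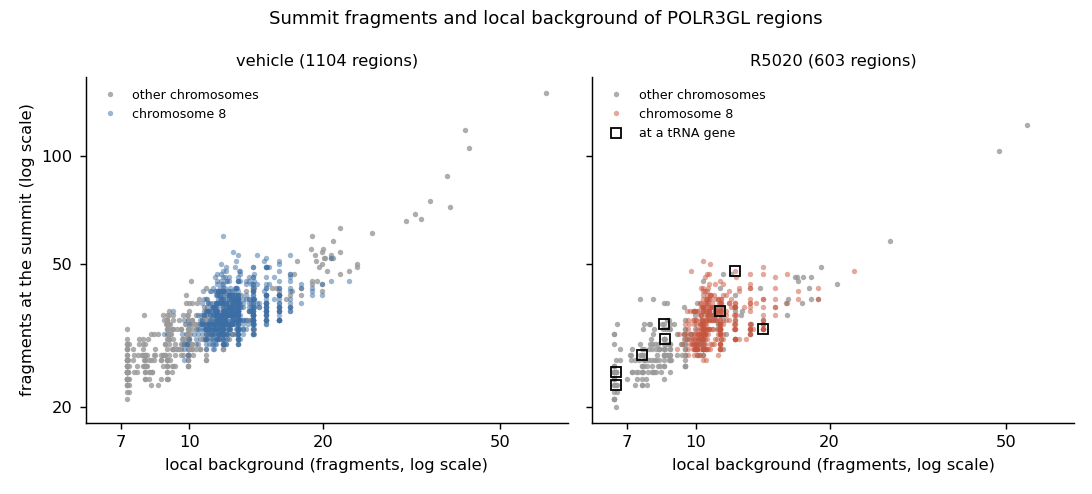
Fragments at the summit (y axis, log scale) against the local background in fragments (x axis, log scale) for each POLR3GL region, with chromosome 8 in colour, other chromosomes in grey and R5020 regions at tRNA genes as open squares. Regions of chromosome 8 sit at a higher background (medians 12.3 and 10.7 fragments) than those of the other chromosomes (9.92 and 8.61) in both lists, and the deepest stacks, of 150 and 122 fragments, lie at the highest backgrounds (63.5 and 55.7).

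Shared regions were wider and deeper than regions of 1 list only. On chromosome 8 the median shared vehicle region was 466 bases wide with 40 fragments at its summit, and the median vehicle-only region 299.5 bases wide with 36 fragments. Elsewhere these medians were 401 bases and 33 fragments against 257.5 bases and 32 fragments. In the R5020 list the shared regions of chromosome 8 had a median width of 412.5 bases and 37 fragments against 238.5 bases and 32 fragments for R5020-only regions. A wider region has more room for an overlap, so width is part of what sharing measures. Relative to the lowest background of its list, the local background of chromosome 8 regions had a median of 1.70 with vehicle and 1.64 with R5020, and that of regions elsewhere 1.37 and 1.32; whether it has a part in the crowding on chromosome 8 was not tested.

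Most regions of each list lay along one stretch of chromosome 8 around TRPS1, which encodes a GATA-type transcriptional repressor of luminal breast cells. From 700 kb on the lower-coordinate side of the centre of the gene span (chr8:115408496-115668975, GRCh38) to 1700 kb on the other side there were 614 vehicle regions, 55.6% of the list, and 307 R5020 regions, 50.9%. The same stretch held 0.147% of the vehicle POLR3G regions, 0.143% of the R5020 POLR3G regions, and 0 POLR3C and 0 Brf1 regions in either treatment. POLR3A had 0 regions there with vehicle and 1 with R5020.

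The lists differed less in number over the gene than beside it. Over the TRPS1 span the vehicle list had 193 regions and the R5020 list 166, a log2 ratio of -0.22 (-0.52 to 0.08); 144 of the vehicle regions (74.6%, 68.0 to 80.2) and 138 of the R5020 regions (83.1%, 76.7 to 88.1) were shared. On the lower-coordinate side there were 179 and 92 regions (-0.96, -1.32 to -0.60), with 22.9% of the vehicle regions shared. On the higher-coordinate side, which holds EIF3H (a subunit of a translation initiation factor), UTP23 (ribosomal RNA processing), RAD21 (a cohesin subunit) and SLC30A8 (a zinc transporter), there were 242 and 49 regions (-2.30, -2.75 to -1.86), and 19 of the vehicle regions (7.85%, 5.08 to 11.9) were shared. The limits of the stretch were set after the data were seen, and with 1 list per treatment the ratios were not tested against each other. How much of the sharing over the gene goes with the crowding of regions there was not tested. Relative to the lowest of the list, the median local background over the lower side, the gene and the higher side was 1.65, 1.79 and 1.70 with vehicle, and 1.59, 1.71 and 1.60 with R5020. The rest of chromosome 8 had 66 vehicle and 37 R5020 regions, of which 2 and 2 were shared.

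**Figure D3:**
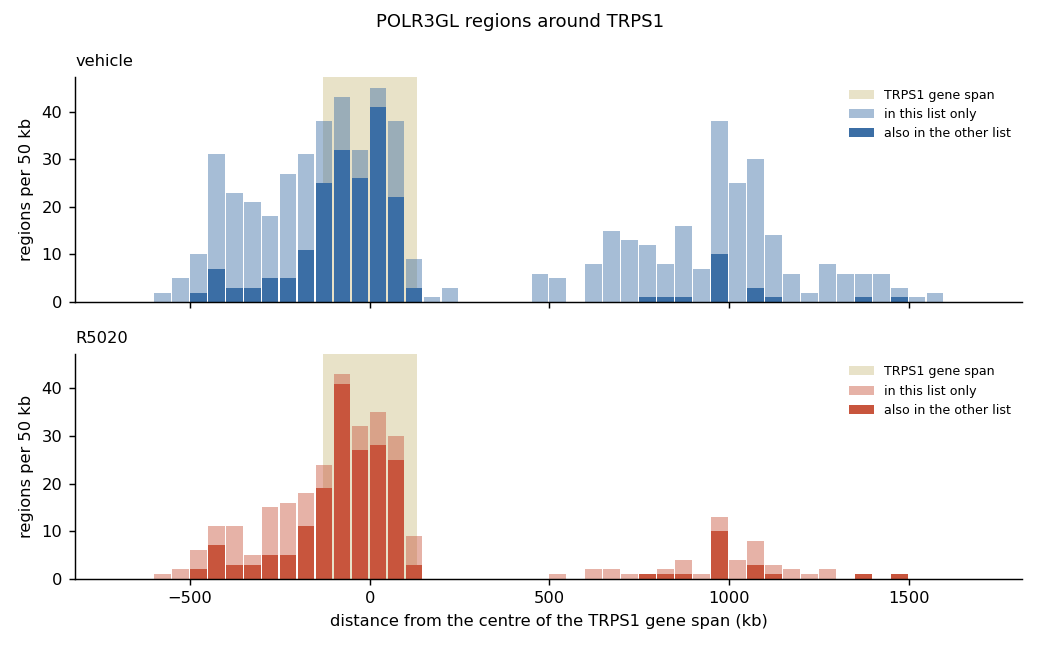
POLR3GL regions per 50 kb (y axis) by distance from the centre of the TRPS1 gene span in kb (x axis), with the vehicle list above and the R5020 list below, dark bars for regions that overlap the other list and the gene span shaded. The tall dark bars over the gene (up to 45 vehicle and 43 R5020 regions per 50 kb) are present in both lists, and the group of vehicle bars near 1000 kb (38 regions in the highest) is lower with R5020 (13).

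Many regions lay close enough to form single runs. With a run defined as at least 5 regions of 1 list and no gap over 50 kb, the longest vehicle run by regions had 377 regions over 793339 bp, of which 25.5% was covered, and the R5020 run at the same place had 258 over 673803 bp (21.9% covered). A second vehicle run, from below EIF3H to SLC30A8, had 226 regions over 953332 bp; R5020 had runs of 12 and 31 regions there. POLR3G of the same treatment lay under 161 of the 377 vehicle regions and 136 of the 258 R5020 regions of the run at TRPS1, but under 0 of the 226 vehicle regions and 0 of the 12 and 31 R5020 regions of the second place. H3K27Ac lay under 36 and 31 regions of the run at TRPS1, and PR under 0 and 49.

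The regions with the highest −log10 q on chromosome 8 came from the same stretch. The first shared vehicle region (chr8:115403232-115406526, −log10 q 13.7) had 60 fragments over a background of 11.9, and of the 3 R5020 regions it overlapped the one of highest −log10 q had 48 over 9.76. The vehicle-only region of highest −log10 q (chr8:115466942-115467179, within TRPS1) had 53 fragments over 14.2, and an R5020 region lay 140 bp away. Among the R5020-only regions the first was not at TRPS1 but at a tRNA gene within TBC1D31, described below, and the second, within TRPS1, was 19 bp from a vehicle region.

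Outside chromosome 8 the vehicle list had 15 dense runs with 163 regions (38.4% of its regions elsewhere), and the R5020 list 6 runs with 76 regions (29.3%). In the runs 22.1% of the vehicle regions were shared, and outside them 9.20%; for R5020 these shares were 36.8% and 16.4%.

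PGR, which encodes the progesterone receptor itself, had the most regions of both lists together outside chromosome 8. Its run on chromosome 11 held 27 vehicle regions, 14 of them shared, and 24 R5020 regions, 13 of them shared. The strongest shared vehicle region there (chr11:101044882-101045863) had 43 fragments over a background of 10.9, with 37 over 12.3 in the R5020 region it overlapped. POLR3G lay under 26 of the 27 vehicle regions and 18 of the 24 R5020 regions, and H3K27Ac under 15 and 4. The other hormone receptor gene with a run in both lists was PRLR, for the prolactin receptor, on chromosome 5. It and the neighbouring AGXT2 had 13 vehicle regions, 8 of them shared, and 19 R5020 regions, 6 of them shared. At PRLR lay the shared R5020 region of highest −log10 q outside chromosome 8 (9.49, chr5:35050689-35051906), with 40 fragments over 7.47, against 35 over 10.1 in the vehicle region it overlapped. In contrast to PGR, POLR3G lay under 0 of these 13 and 0 of these 19 regions.

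SATB1, which encodes a chromatin organiser, had the largest run of 1 list only. Its 89644 bp on chromosome 3 held 33 vehicle regions and 0 R5020 regions. The reverse case was the 26174 bp from CAPN7 to SH3BP5 on the same chromosome, with 0 vehicle and 12 R5020 regions, 8 of them under POLR3G. A pair of vehicle runs over MED13L, a subunit of the Mediator kinase module, held 9 and 16 regions, against 5 and 7 in the R5020 list, with 1 shared region in each. Another pair on chromosome 10, downstream of the luminal factor gene GATA3 over long noncoding RNA genes that include LINC00708, held 10 and 6 regions, against 2 and 2, with 0 shared. NFE2L3, which encodes a transcription factor of the CNC family, had 5 vehicle regions, 4 of them shared, and 8 R5020 regions, 6 of them shared. MALAT1, an abundant nuclear noncoding RNA, had 8 vehicle regions, all 8 under H3K27Ac and POLR3G, and 2 R5020 regions. CNIH4 and WDR26 went the other way, with 2 vehicle and 8 R5020 regions. Of the 15 vehicle runs 12 had an R5020 region within their span, and SATB1, MAP3K12 and the run from ANXA8 to AGAP9 had none. Local background relative to the lowest of the list was 1.30 at SATB1, 1.46 and 1.44 at PGR, and 2.75 and 4.59 at the runs of MELTF to DLG1 and of C1QTNF3 in the vehicle list.

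**Figure D4:**
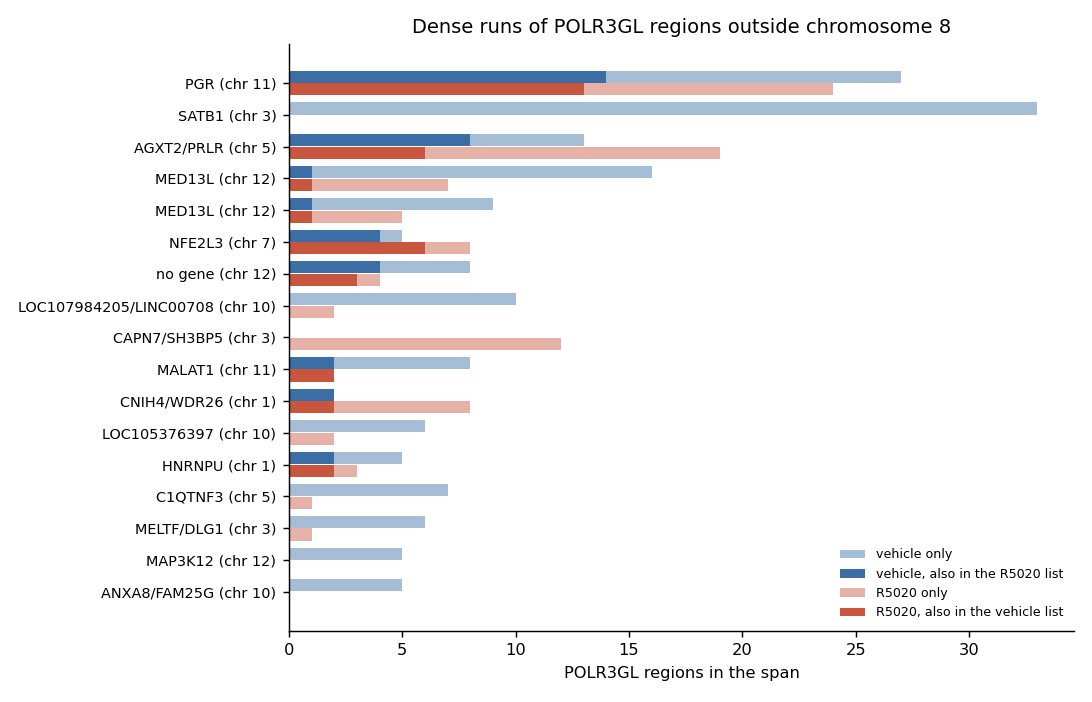
Number of POLR3GL regions (x axis) in each place outside chromosome 8 that held a dense run in either list, named by up to 2 genes it overlaps (y axis). Blue bars are vehicle and red bars R5020 regions, with the part that overlaps the other list in the darker shade; PGR has 27 and 24 regions and SATB1 33 and 0.

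The lists were also compared with gene sets. Of 10 genes of luminal breast cells 3 had a vehicle region within 10 kb, TRPS1 with 198, PGR with 27 and GATA3 with 3, and 2 had an R5020 region, TRPS1 with 172 and PGR with 24. Over all 19974 protein-coding genes 1.39% had a vehicle region and 1.04% an R5020 region within 10 kb. The marker list was drawn up with earlier results of these data known, so its count is a description. The other 7 luminal genes (KRT8, KRT18, KRT19, ESR1, FOXA1, TFF1 and EPCAM) had 0 in both lists, although all 10 had a vehicle H3K27Ac region within 1 kb of an end. Among 10 progestin-responsive genes, such as FKBP5, PER1 and KLF9, and among 23 genes of polymerase III subunits and regulators, 0 had a POLR3GL region within 10 kb in either list. Markers of basal (4), fibroblast (3), immune (2) and endothelial (2) cells had 0 as well. As a check of the labelled cells, vehicle H3K27Ac lay at all 10 luminal genes, at 2 of the 4 basal genes (not KRT5 or KRT14), 2 of 3 fibroblast, 1 of 2 immune and 1 of 2 endothelial genes, against 68.3% of all protein-coding genes. With R5020 it lay at 9 of the 10 luminal genes (not TFF1), 2 of 4 basal, 2 of 3 fibroblast, 0 of 2 immune and 2 of 2 endothelial genes, against 69.5% of all.

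The label of the immunoprecipitated protein was checked against the known targets of polymerase III. With vehicle, 0 of 422 nuclear tRNA genes had a POLR3GL region within 200 bp (Wilson upper limit 0.902%), and with R5020 10 did (2.37%, 1.29 to 4.31). POLR3A, by the same rule, was at 360 of them with vehicle and at 359 (85.1%) with R5020, Brf1 at 300 and 309, POLR3G at 216 and 203, and POLR3C at 99 and 117. The 37 other genes of polymerase III included RN7SK, RMRP, the vault RNA genes and the 5S genes. Of these 37, 0 had a vehicle POLR3GL region (Wilson upper limit 9.41%) and 1 had an R5020 region, VTRNA1-2. POLR3A was at 36 of the 37 in both treatments. The lists therefore hold regions called with a POLR3GL antibody of which nearly all lie away from known polymerase III genes, and they are named by the antibody here.

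The 10 tRNA genes were reached by 8 R5020-only regions, which overlapped 8 of the genes and lay beside the other 2. The methionine gene TRM-CAT1-1, within TBC1D31 on chromosome 8, had the region of highest −log10 q (7.93): 48 fragments (exact Poisson interval 35.4 to 63.6) over a background of 12.3. The arginine gene TRR-TCG1-1, next to POLG (chr15:89335012-89335304), had 34 fragments (23.6 to 47.5) over 8.50. The serine gene TRS-TGA1-1 (chr10:67764412-67764611) had 37 over 11.3, and the lysine gene TRK-CTT2-1 (chr1:146039357-146039528) 31 over 8.53. The aspartate gene TRD-GTC2-8 (chr12:96035750-96036110) had 28 over 7.55, and the serine gene TRS-GCT4-2 (chr15:40593811-40594047) 25 over 6.61. TRD-GTC2-8 lies within the gene span of LTA4H, upstream of the LTA4H start whose window is printed above. The remaining regions each overlapped 1 gene and lay beside another. The region over the proline gene TRP-TGG2-1, beside TRP-AGG2-4 (chr11:76235775-76235961), had 33 over 14.2, and the one over the threonine gene TRT-AGT1-1, beside the serine gene TRS-GCT4-3 (chr17:8186996-8187200), had 23 over 6.61.

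The −log10 q of these 8 regions ran from 1.36 to 7.93 with a median of 3.83, against a median of 3.22 over the whole R5020 list, and 2 of the 10 genes kept a region at a −log10 q of at least 5. All 8 regions overlapped POLR3A, Brf1, POLR3C, POLR3G and H3K27Ac regions in both treatments. Within the R5020 POLR3G list the fold of the region there was at the 99.8th percentile or higher for all 8, and within the R5020 POLR3A list between the 80.7th and 92.7th. It was between the 87.0th and 96.5th within the Brf1 list and between the 55.6th and 98.1st within the POLR3C list. PR overlapped 1 of the 8 with vehicle and 5 with R5020, and Maf1 1 and 6. The whole PR list had 6662 regions with vehicle and 173115 with R5020, and the Maf1 list 3048 and 22638. No share over all tRNA genes is given for PR or Maf1, so a change particular to these 8 regions was not tested. The nearest vehicle POLR3GL region was 323853 to 21067906 bp away. Whether the same sites had fragments under the calling threshold with vehicle cannot be read from a list of called regions. The library with the conflicting tag is 1 of the 3 behind the R5020 list.

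Other R5020 regions met POLR3A, Brf1 or POLR3C away from tRNA genes. One lay at VTRNA1-2, a vault RNA gene (chr5:140718811-140719015), and overlapped all 3. One, with no gene in the table under it (chr11:68459978-68460353), also overlapped all 3. One at the shared promoter of SF3B6, a splicing factor gene, and FAM228B (chr2:24076387-24076959) overlapped Brf1 and POLR3C, and one over MALAT1 overlapped POLR3C. In the vehicle list 0 regions overlapped POLR3A or Brf1, and 4 overlapped POLR3C: 2 at or beside MALAT1, one within TMEM242 on chromosome 6 and one near the end of chromosome 1.

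Of the other antibodies, POLR3G met the POLR3GL regions most often. It overlapped 25.9% of all vehicle and 42.5% of all R5020 POLR3GL regions of the same treatment, and H3K27Ac overlapped 12.3% and 16.6%. The lists differ in length, with 58423 POLR3G, 88869 H3K27Ac, 688 POLR3A and 666 POLR3C regions in vehicle cells. Vehicle POLR3G regions covered 1.18% of the bases of chromosome 8 and 1.165% elsewhere, and H3K27Ac regions 2.56% and 2.84%. With R5020 these were 0.952% and 0.765% for POLR3G, and 2.65% and 2.93% for H3K27Ac. No region of the other 7 antibodies overlapped 72.4% of the vehicle regions on chromosome 8 and 65.6% of those elsewhere, and for the R5020 regions these shares were 51.5% and 43.6%. On chromosome 8 POLR3G lay under 121 of 206 shared vehicle regions (58.7%) and 44 of 474 vehicle-only regions (9.28%), a difference of 49.5 points (Newcombe interval 42.0 to 56.3). Elsewhere it lay under 29 of 60 shared (48.3%) and 92 of 364 vehicle-only regions (25.3%), a difference of 23.1 points (10.0 to 36.1). The R5020 list had the same order, with 120 of 200 shared (60.0%) and 23 of 144 R5020-only regions (16.0%) on chromosome 8, a difference of 44.0 points (34.3 to 52.3), and 35 of 58 (60.3%) and 78 of 201 (38.8%) elsewhere, a difference of 21.5 points (6.96 to 34.8). The run at TRPS1 held 161 of the 165 vehicle regions with POLR3G on chromosome 8 and 185 of the 206 shared ones. With R5020 it held 136 of 143 and 179 of 200. The chromosome 8 differences therefore rest on regions of 1 place, where neighbours are not independent. They were not computed within that run. Shared regions are wider, and with 50% of both regions required to coincide the chromosome 8 differences were 1.37 and 0.31 points. Within 1 kb they were 51.7 and 43.0 points. Counted by the POLR3GL summit alone, POLR3G lay under 56.3% of shared and 8.02% of vehicle-only regions on chromosome 8. For the R5020 list these shares were 54.0% of shared and 15.3% of R5020-only regions. Among regions with a −log10 q of at least 5 the R5020 difference elsewhere changed sign (-17.1 points).

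**Figure D5:**
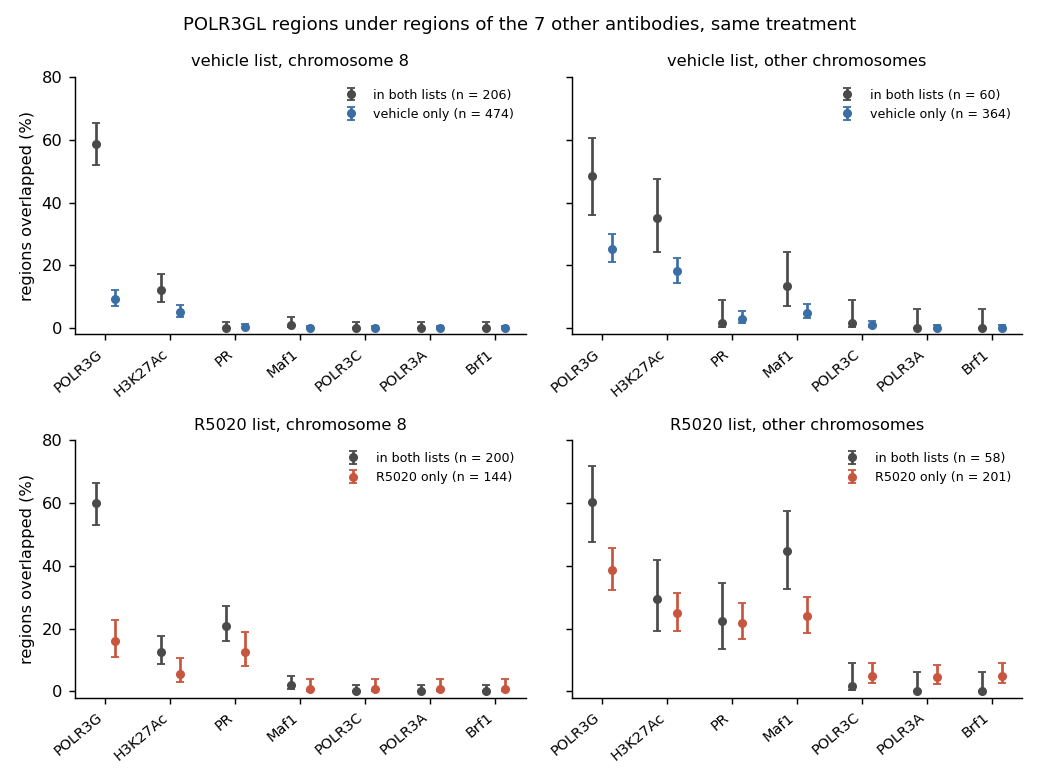
Share of POLR3GL regions (y axis, percent) that overlap a region of each of the 7 other antibodies (x axis) in the same treatment, with 95% Wilson intervals, for regions in both lists (dark) and in 1 list only (blue vehicle, red R5020). POLR3G overlaps the shared regions more often than the others in all 4 panels, and PR and Maf1 overlap few regions of the vehicle list.

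H3K27Ac lay under 25 of 206 shared and 24 of 474 vehicle-only regions on chromosome 8, a difference of 7.07 points (2.62 to 12.5), and under 21 of 60 and 66 of 364 elsewhere, a difference of 16.9 points (5.22 to 30.0). On chromosome 8 this difference was -0.52 points among regions with a −log10 q of at least 5. In the R5020 list the differences were 6.94 points (0.59 to 12.9) and 4.44 points (-7.56 to 18.3), and the second interval includes 0. Maf1 regions covered 0.327% of the bases of chromosome 8 and 0.269% elsewhere with R5020. Maf1 lay under 5 of 344 R5020 regions on chromosome 8 (1.45%) and 74 of 259 elsewhere (28.6%). It was at 26 of 58 shared (44.8%) and 48 of 201 R5020-only regions (23.9%) elsewhere, a difference of 20.9 points (7.30 to 34.8). With 50% of both regions required to coincide this difference was 3.88 points (-3.11 to 14.7), and among regions with a −log10 q of at least 5 it was 10.2 points (-23.5 to 42.2). PR overlapped 1 of 680 and 12 of 424 vehicle regions, and 60 of 344 and 57 of 259 R5020 regions. The PR and Maf1 lists themselves were longer with R5020, and PR regions covered 2.14% of the bases outside chromosome 8 with R5020 and 0.0792% with vehicle. The PR regions of hormone-treated cells also lay on places where POLR3GL was called with vehicle: on chromosome 8 they overlapped 39 of 206 vehicle regions that were shared (18.9%, 14.2 to 24.8) and 40 of 474 vehicle-only regions (8.44%, 6.26 to 11.3), and elsewhere 15 of 60 (25.0%, 15.8 to 37.2) and 47 of 364 (12.9%, 9.85 to 16.8).

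Outside chromosome 8, 255 of 424 vehicle regions (60.1%, 55.4 to 64.7) and 163 of 259 R5020 regions (62.9%, 56.9 to 68.6) lay in the span of a protein-coding gene, and 57 (13.4%, 10.5 to 17.0) and 49 (18.9%, 14.6 to 24.1) within 1 kb of an end of one. On chromosome 8 the shares near an end were 1.62% and 1.16%. No share of the bases in gene spans or near gene ends is set beside these values, so they are descriptions only. Over the whole genome 0.34% of protein-coding genes had a vehicle region and 0.27% an R5020 region within 1 kb of an end. Where the promoter table gave the strand of the gene, 21 of 50 vehicle regions near an end lay at a start and 29 only at the far end; for R5020 these were 14 and 27 of 41.

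Outside chromosome 8, 60 genes had a vehicle region at an end and 50 an R5020 region, and 17 had both, 28.3% of the first and 34.0% of the second. In 11 of the 17 the regions themselves overlapped. Among the 13 of known strand, 8 had their regions of both lists at the far end: CLTC (clathrin heavy chain), CNIH4, CSNK1A1 (a casein kinase), HNRNPU (a nuclear RNA-binding protein), NFE2L3, PRLR, PTRH2 and SRSF6 (a splicing factor). The other way round, 4 had them at the start: AGXT2, LOC124900992, NAT10 (an RNA acetyltransferase) and SCFD1. NUTM2A had its vehicle region at the far end and its R5020 region at the start. EIF2S2 (a translation initiation factor subunit), PAPSS2, RPL37 (a ribosomal protein) and TBC1D17 make up the 17, with no strand in the table. The regions of CLTC and PTRH2 are the same ones, since these genes end beside each other, and so is the R5020 region of AGXT2 and PRLR. Summit fragments at the 17 genes were 28 to 40 with vehicle over backgrounds of 7.22 to 14.9, and 27 to 40 with R5020 over 6.54 to 13.2. At HNRNPU the values were 29 fragments over 7.22 (19.4 to 41.7) and 32 over 6.54 (21.9 to 45.2), and at TBC1D17 33 over 7.22 and 29 over 10.4. A paired difference in fragments cannot be tested on 1 list per treatment.

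The deepest stacks of fragments in both lists lay within TMEM242 on chromosome 6, which encodes a mitochondrial membrane protein. The shared region chr6:157310490-157310959 had 150 fragments over a background of 63.5 with vehicle and 122 over 55.7 with R5020, and its neighbour chr6:157312913-157313204 had 105 over 42.6 and 103 over 48.2. The vehicle-only region of highest −log10 q outside chromosome 8 (13.7, chr6:157314139-157314336) was the third of this group, with 118 over 41.7, and an R5020 region lay 1078 bp away. At these regions the local background was 5.77 to 8.79 times the lowest of the vehicle list. The next vehicle-only regions were on chromosome 10 over LOC124902544, with 45 fragments over 10.1, and near the end of chromosome 1, with 60 over 18.8. The R5020-only regions of highest −log10 q were at CCDC174 with 47 over 11.5, within NBPF14, a gene of a family of near-identical copies, with 47 over 12.0, and within PGR with 38 over 9.42. The third shared R5020 region, over MALAT1, had 45 over 10.4, against 41 over 12.9 in the vehicle region it overlapped, and the second, at NFE2L3, had 40 over 8.01 against 39 over 14.9.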

How the data were processed

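ChIP-seq libraries of T47D cells (54 in all) stand behind 16 deposited peak lists, 1 per antibody and treatment. The submitters' processing notes name cutadapt, Bowtie2, MACS2 and the build hg38, without versions or roles; how the 3 libraries of a list were combined and which control was used is not given in the sources used here. For each region the authors deposited a fold, which is a ratio of signal over background, and the −log10 of a p-value and of a q-value, per the layout of the files; such values are the authors', and serve here for description, ranking and filtering inside 1 list. Separate samples are not marked as separate cultures. The members and the gene lists were chosen with earlier results of these data known.

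Fragments at a summit were computed from the deposited fold, taken as (fragments + 1) over (background + 1), and the deposited p, taken as a Poisson probability. This is MACS2's usual formula, which no source states. All 1104 vehicle and 603 R5020 regions matched a whole number within 0.001 of the deposited −log10 p, and the next whole number missed by at least 0.0202. The formula and the overlap count were tested on simulated data. Total counts per library were not used here, so depth is known only through the background. The intervals given cover counting error only: Wilson for shares, Newcombe for differences, exact Poisson for fragments, at 95%.

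Gene spans came from RefSeq (GRCh38.p14, the release of the build named above); of 37 listed polymerase III genes 37 were found, and tRNA genes were those with numbered symbols beyond the first 100 kb of a chromosome. Gene strands came from the promoter table, which gives none on chromosome 8. All promoter windows counted under POLR3GL regions, 20 with vehicle and 11 with R5020, are therefore on the other chromosomes. The rule for named places took the 3 regions of highest −log10 q of each class, on chromosome 8 and elsewhere, every polymerase III gene with a region, genes outside chromosome 8 with a region within 1 kb of an end in both lists, genes under the longest run, and the listed genes within 10 kb; other runs, promoter windows and the regions with POLR3A, Brf1 or POLR3C were named after their values were seen. Alternatives changed the overlap rule, the −log10 q and fold minimum, the joining of neighbours, the windows and the run gap. Python 3.11.15, numpy 2.4.6, scipy 1.17.1, pandas 2.3.3 and matplotlib 3.10.9 were used.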

Additional observations from a re-analysis of the deposited data

How the results depend on the processing

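No paired analysis was possible because each list pools 3 libraries and holds no value per replicate, and for the same reason no replicate could be left out. Of 143 values under alternatives, 88 stayed within the interval of the value reported (counts within 1.5 times), 52 moved outside it and 3 changed sign. The cause of these moves was not tested. The joining of regions within 50 kb and the removal of the stretch around TRPS1 were chosen after the data were seen.

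The log2 ratio of R5020 to vehicle region numbers on chromosome 8 was −0.72 among regions with a −log10 q of at least 5, −0.28 among those with a fold of at least 3 and −0.23 with regions within 50 kb joined, and on the other chromosomes it was −0.26 at the fold minimum. The share of vehicle regions on chromosome 8 also found with R5020 was 7.94% where 50% of both regions had to be shared, 18.7% by summit, 51.8% within 1 kb, 35.7% at the −log10 q minimum, 41.6% between equal numbers of top regions, 15.0% with joining within 50 kb and 3.03% without the TRPS1 stretch. For R5020 regions on chromosome 8 the same settings gave 15.7%, 35.5%, 82.3%, 52.9%, 43.6%, 32.4% and 5.41%, and the fold minimum 38.8%. On the other chromosomes the vehicle share was 4.72% at 50% sharing, 8.26% by summit, 21.9% within 1 kb and 11.1% at the −log10 q minimum. The R5020 share there was 7.72%, 14.3% and 34.4% at the first 3 of these settings and 14.8% at the fold minimum.

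Regions in both lists overlapped H3K27Ac more often than vehicle-only regions on chromosome 8 by 2.07 points at 50% sharing and 19.1 points within 1 kb, but the difference was −0.52 points at the −log10 q minimum. For R5020 regions on the other chromosomes it was 21.0 points within 1 kb. The POLR3G difference at 50% sharing was 1.37 points for vehicle and 0.31 for R5020 regions on chromosome 8, and 5.60 and 6.56 points elsewhere. Within 1 kb it was 51.7 and 43.0 points on chromosome 8. It was −17.1 points for R5020 regions elsewhere at the −log10 q minimum. The difference in overlap with PR for R5020 regions on chromosome 8 was −0.47 points at 50% sharing. With runs broken at 20 kb, chromosome 8 held 12 dense vehicle runs, and at the −log10 q minimum 2 nuclear tRNA genes had an R5020 region. For the overlaps with PR, Maf1, POLR3A, POLR3C and Brf1, the shares near gene ends and the other polymerase III genes, 51 of 68 values stayed and 16 moved. By the rule above 1, the PR value just given, changed sign. Some PR, Maf1 and POLR3C differences whose interval included 0 also crossed 0 and are counted among the stayed or moved. With 1 list per treatment, differences between cultures and between library depths cannot be told apart from the treatment, and a region missing from a list may lie just under its threshold.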
